A study of Mus musculus with 5 samples.

Results

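The clustered histone genes are the mouse genes for linker histone H1 and the core histones H2A, H2B, H3 and H4 that lie together in the Hist1, Hist2, Hist3 and Hist4 loci. The gene lists of the 5 single-cell libraries held 70 symbols that start with Hist1h, Hist2h, Hist3h or Hist4, among 41028 genes in all, and the 63 with at least 10 UMIs summed over the libraries are described here. They comprise 5 H1, 17 H2A, 16 H2B, 12 H3 and 13 H4 genes. In the GRCm38 annotation the 50 Hist1 genes lie on chromosome 13, the 10 Hist2 genes on chromosome 3, the 2 Hist3 genes on chromosome 11 and the Hist4 gene on chromosome 6. Just inside the limit were Hist1h2ah with 10 UMIs and Hist2h2aa2 and Hist1h4m with 13 each, and just outside it were Hist1h2aa with 6, Hist1h1t with 4, Hist1h2bq with 3 and Hist1h2ba with 2.

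The libraries came from digested mammary tumours of PyMT mice, animals that develop mammary tumours from the polyoma middle T antigen. The labels give neither strain, age nor the number of animals, so p-values measure the spread between libraries. Fresh 10x 1 and fresh 10x 2 are fresh tumour samples run on the 10x Genomics 3' v2 chemistry. Stored 10x is 1 sample on that chemistry titled 24h, and the protocol describes digests held overnight at 4 °C and used once viability had dropped by at least 20%. BD 1 and BD 2 were run on BD Rhapsody (WTA, the whole transcriptome kit). BD 1 is labelled fresh, while the title of BD 2 says fresh and its files are named for 24 h, so BD 2 was not merged with another group. Both platforms prime on poly(A) and count unique molecular identifiers (UMIs), each of which stands for a captured transcript end.

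Most histone genes of these loci are replication-dependent. Their transcripts are made in S phase, carry no poly(A) tail and end a few bases after a conserved hairpin that the stem-loop binding protein, the product of Slbp, recognises. After replication the hairpin-ended transcripts are degraded. Some genes of the loci can also give polyadenylated transcripts when transcription runs past the hairpin to a poly(A) signal, and such transcripts occur in cells that do not divide. Libraries primed on poly(A) favour the second form.

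The hairpin is the sequence that separates these forms, so it is shown for 8 genes on which the results turn, 4 that were tied to S phase in these cells and 4 that were not. The search took GRCm38 gene models (GENCODE M21) and ran over the whole of the longest coding transcript of each. It looked for 16 bases that start with GG, form a 6-base stem and close on a 4-base loop opening with TT. The last match in a transcript was kept as the hairpin. It was found in 42 of the 63 genes, in 6 versions. Each line gives 7 bases before the hairpin, the hairpin in capitals and up to 7 bases after it, in the direction of the transcript. The S-tied genes are Hist1h2ap (hairpin at chr13:21833029-21833044, minus strand), Hist1h3c (chr13:23745047-23745062, minus), Hist1h2ae (chr13:23570668-23570683, minus) and Hist1h1e (chr13:23621782-23621797, minus). The others are Hist1h1c (chr13:23739512-23739527, plus), Hist3h2a (chr11:58955172-58955187, plus), Hist1h4h (chr13:23531458-23531473, plus) and Hist1h4i (chr13:22040966-22040981, minus).
Hist1h2ap: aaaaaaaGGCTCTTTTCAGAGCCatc
Hist1h3c: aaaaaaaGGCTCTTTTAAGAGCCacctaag
Hist1h2ae: aaacaaaGGCTCTTTTCAGAGCCattcact
Hist1h1e: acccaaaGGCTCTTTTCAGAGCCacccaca
Hist1h1c: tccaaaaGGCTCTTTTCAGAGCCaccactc
Hist3h2a: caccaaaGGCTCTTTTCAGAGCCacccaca
Hist1h4h: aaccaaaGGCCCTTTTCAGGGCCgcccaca
Hist1h4i: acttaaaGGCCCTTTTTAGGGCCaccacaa
The hairpin of Hist1h2ap, Hist1h2ae, Hist1h1e, Hist1h1c and Hist3h2a is letter for letter the same and was the version of 25 genes. The version of Hist1h3c was found in 5 genes, that of Hist1h4h in 7 and that of Hist1h4i in 2. The letters of the hairpin therefore do not divide the 4 S-tied genes from the other 4.

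The annotated transcript past the hairpin did differ between the classes defined below. Of the 11 S-tied genes 7 had a hairpin in the model, and the model ran on for 3 to 1153 bases after it, with a median of 46. Of the 16 genes present outside S phase 14 had one, and the model ran on for 35 to 4884 bases, with a median of 1003.5. Of the 31 members with too few UMIs to test 17 had one, with a median of 33 bases after it. Of the 5 undecided genes 4 had one, with a median of 262 bases. An AATAAA or ATTAAA poly(A) signal followed the hairpin in 1 S-tied gene, Hist1h2ae, and in 11 genes present outside S phase. Models of 3 S-tied genes, Hist1h1b, Hist1h2ak and Hist2h2bb, stop without a 3' UTR, so nothing past the coding sequence could be searched there, and Hist1h1a had no match. Exceptions ran both ways, since Hist1h1e continues for 1153 bases in the S-tied class and Hist1h4h for 46 bases in the other. These lengths describe the annotation and not the ends used in the tumours.

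**Figure D1:**
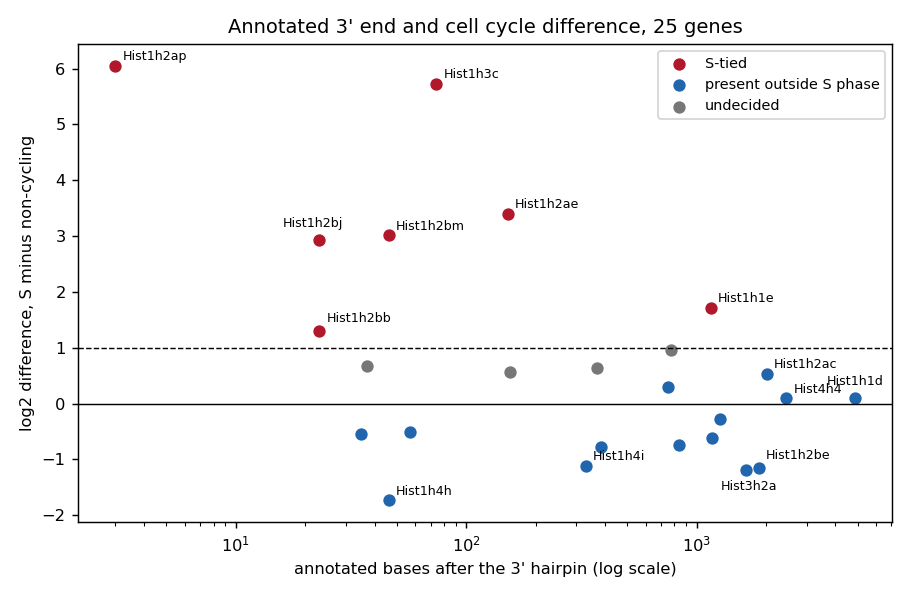
Annotated bases after the 3' hairpin (x axis, log scale) against the log2 difference in share of UMIs between S-gated and non-cycling epithelial-gated cells (y axis) for the 25 tested genes with a hairpin. Each point is a gene, the dashed line is a 2-fold rise, and the points above it lie within 200 bases of the hairpin except Hist1h1e at 1153.

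Promoters were searched for an octamer that is the binding motif of Oct factors and known from histone H2B genes, and for the TATA and CCAAT motifs. A RefSeq promoter window (GRCm38.p6, 250 bases before to 50 after the start) was found for 58 of the 63 genes and searched on both strands. The octamer ATTTGCAT was present in 11, of which 6 were H2A and 5 were H2B genes, against 1.74% of 32851 promoters. Windows of neighbouring H2A and H2B genes on opposite strands can overlap, so a single site can count for both genes. The counts are thus not of independent promoters. TATAAA was present in 33 of the 58, against 13.6% of all promoters, and CCAAT in 49, against 37.4%. CCAAT was in all 46 windows of H1, H2A, H2B and H3 genes and in 3 of 12 windows of H4 genes. By class, the octamer, TATAAA and CCAAT were in 4, 6 and 11 of 11 S-tied windows and in 3, 8 and 10 of 14 windows of genes present outside S phase. The promoters of Hist1h2ae, an S-tied H2A gene (chr13:23571171-23571470, minus strand), and Hist2h2ac, an H2A gene present outside S phase (chr3:96220831-96221130, minus strand), are printed in the direction of the gene with matches to the 3 motifs on either strand in capitals.
Hist1h2ae: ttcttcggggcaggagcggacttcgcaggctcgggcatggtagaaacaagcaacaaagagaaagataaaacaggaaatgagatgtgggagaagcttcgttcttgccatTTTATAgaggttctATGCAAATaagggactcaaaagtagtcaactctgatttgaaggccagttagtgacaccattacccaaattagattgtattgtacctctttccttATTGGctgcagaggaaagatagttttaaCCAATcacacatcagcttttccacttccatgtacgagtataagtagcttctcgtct
Hist2h2ac: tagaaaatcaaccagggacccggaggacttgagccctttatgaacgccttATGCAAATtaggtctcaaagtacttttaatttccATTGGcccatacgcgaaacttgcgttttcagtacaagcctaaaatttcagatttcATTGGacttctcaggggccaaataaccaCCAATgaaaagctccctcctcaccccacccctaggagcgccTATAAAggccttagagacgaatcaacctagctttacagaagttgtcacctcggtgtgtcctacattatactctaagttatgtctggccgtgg
Both windows hold all 3 motifs although the genes fall in different classes. The octamer and TATAAA matches of Hist1h2ae lie on the opposite strand. They are the same sites as in the overlapping window of the H2B gene Hist1h2bg (chr13:23571150-23571449, plus strand). A match of letters is a description and not a measured binding site.

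The members took a small part of each library. Library totals ranged from 29166129 to 59957945 UMIs and pairs of libraries shared between 0 and 5 cell barcodes. Values for the 5 libraries are given below in the order fresh 10x 1, fresh 10x 2, stored 10x, BD 1, BD 2. Summed over the 63 genes, the level was 6.80, 6.77, 5.33, 4.51 and 4.52 UMIs per 10000. Both BD libraries were below all 3 10x libraries. Over all libraries H1 genes had 38750 UMIs, H2B 36451, H2A 21897, H4 17438 and H3 3730. UMIs count transcript ends and were not scaled by length, so these totals give shares of the captured molecules.

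A few genes held most of these UMIs. Hist1h1c, which encodes the linker histone H1.2, had 84.4% of the H1 UMIs, and Hist1h2bc, a core H2B gene, had 87.8% of the H2B UMIs. Together they made up 48.0, 49.9, 39.5, 68.5 and 67.5% of the member UMIs. In counts per 1000000 UMIs of the library (CPM), Hist1h1c stood at 136, 130, 112, 168 and 176. Hist1h2bc stood at 190, 208, 98.9, 141 and 129. The BD libraries were thus the highest for Hist1h1c, while for Hist1h2bc they lay between stored and fresh 10x.

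The next 2 genes by UMIs differed from each other in the BD libraries. Hist1h4i, an H4 gene with 49.6% of the H4 UMIs, stood at 63.5, 72.4, 35.8, 25.001 and 24.1 CPM. Hist1h2ap, an H2A gene with 37.1% of the H2A UMIs, stood at 73.5, 18.9 and 101 CPM on 10x and at 0.18 and 0.12 CPM on BD Rhapsody. For Hist1h2ap the fresh pair itself spanned a wide range, and the BD libraries held only 11 and 6 UMIs of it.

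Of the other genes with most UMIs, Hist1h4h (H4) stood at 34.1, 23.4, 28.3, 20.7 and 19.6 CPM, and Hist3h2a (H2A, outside the large Hist1 locus) at 24.9, 33.4, 23.2, 23.2 and 21.5. In the same order Hist1h2ae (H2A) stood at 26.7, 24.6, 13.8, 8.32 and 9.13. Hist1h1e, which encodes H1.4, stood at 15.5, 22.6, 14.3, 4.79 and 4.98. The range over libraries was narrow for Hist3h2a and Hist1h4h and wide for the other 2.

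**Figure D2:**
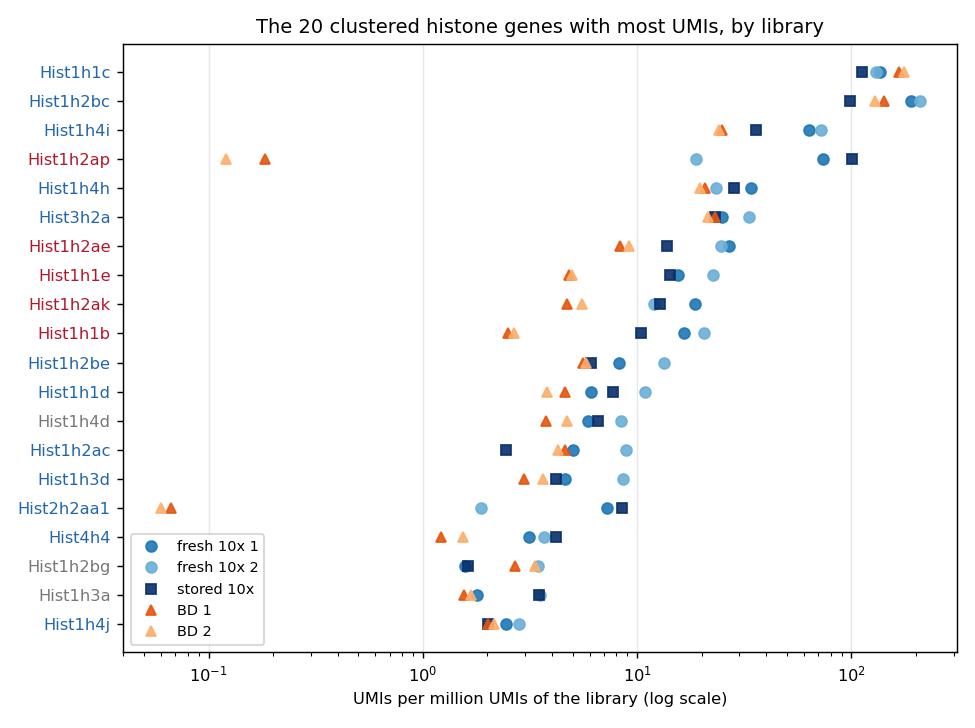
UMIs per 1000000 UMIs of the library (CPM, x axis, log scale) for the 20 members with most UMIs, 1 point per library. Gene names are coloured by class (red S-tied, blue present outside S phase, grey undecided), and the BD points of Hist1h2ap (0.18 and 0.12) and Hist2h2aa1 lie far left of the 10x points.

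Many of these genes are near copies of each other, and that limits what a symbol's count means. Over the last 150 stretches of 50 bases of each model, 25 of the 63 genes shared more than 50% of the stretches with another gene and 23 shared none. Hist1h2ap shared 100% with Hist1h2ao, Hist2h2aa1 shared 100% with Hist2h2aa2 and Gm20634, and Hist1h2br shared 100% with Hist1h2bq. Hist1h1c, Hist1h4i and Hist3h2a shared none. Models of 23 members overlap another gene, 7 of them on the same strand. Hist1h1e is such a case, since Hist1h2be and Gm11398 run over it on its own strand and its 3' end was shared in full.

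Cells were placed in the cell cycle without histone genes. Epithelial-gated cells, 67.0 to 75.2% of each library by Epcam, Krt8, Krt18 and Krt19, were scored on 34 S-phase and 24 G2M genes that were left out of the test. In each library cells in the top 10% of the S score whose scaled S score exceeded the G2M score formed the S gate (796 cells over 5 libraries), the reverse gave the G2M gate (726), and cells at or below the median of both scores the non-cycling gate (3455). Counts were summed per library and gate, and edgeR's quasi-likelihood test with a block for library compared the sums over 11615 genes. The gates differed in depth, with a median of 21337 to 26672 UMIs per cell in S and 7858 to 10721 in non-cycling cells, so shares of UMIs and UMIs per cell are both given. A gate is a range of a score and not a cell type, and 23 to 57 epithelial cells per library lay within 10% of the S limit.

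The members differed in how far they rose in S-gated cells. Of the 32 members with enough UMIs to test, 11 rose at least 2-fold in S-gated cells at an adjusted p below 0.05 and are called S-tied: the H1 genes Hist1h1a, Hist1h1b and Hist1h1e, the H2A genes Hist1h2ae, Hist1h2ak and Hist1h2ap, the H2B genes Hist1h2bb, Hist1h2bj, Hist1h2bm and Hist2h2bb, and the H3 gene Hist1h3c. No H4 gene was among them. This is 34.4% of the tested members, where 10.6% of all genes tested passed the same rule. At the adjusted p alone 15 of the 32 were higher, where 34.5% of all genes were. For 16 genes the 95% interval of the difference lay below a 2-fold rise, and these are called present outside S phase. The name describes the difference and not the level in non-cycling cells. There S-tied Hist1h1e had 321 UMIs, while Hist1h4a, called present outside S phase, had 56. A further 5 were undecided, namely Hist1h2bg, Hist1h2br, Hist1h3a, Hist1h3e and the H4 gene Hist1h4d. By share of UMIs Hist1h2bg, Hist1h3e and Hist1h4d were higher in S-gated cells in 5 of 5 libraries, Hist1h4d without overlap. Hist1h2br and Hist1h3a were higher in 3. The filter bears on the counts above, because 9 of the 11 S-tied genes reached it only through their cycling cells, against 4 of the 16. These counts are therefore not support for a general rise of the members.

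Hist1h2ap had the largest difference. Its level in non-cycling cells was 4.63, 2.50 and 7.57 CPM in the 10x libraries and 0 in both BD libraries. In S-gated cells it was 381, 93.1 and 521 in the 10x libraries, from 1107, 298 and 2880 UMIs, but 0.49 and 0.36 in BD 1 and BD 2, from 3 and 2 UMIs. The fitted log2 difference was 6.05 ± 0.15 (SE, 5 libraries, adjusted p = 9.34e-16), and it rests on the 10x libraries. There S-gated cells carried 11.9, 2.92 and 15.7 Hist1h2ap UMIs each, against 0.059, 0.036 and 0.11 in non-cycling cells.

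Hist1h2ak, another H2A gene, separated the gates on both platforms. It stood at 1.74, 0.33, 1.06, 0.63 and 0.97 CPM in non-cycling cells and at 93.6, 57.8, 62.6, 22.3 and 23.6 in S-gated cells. The ranges did not overlap, and the log2 difference was 5.61 ± 0.18 (adjusted p = 2.23e-14). Hist1h1b, which encodes H1.5, stood at 0.96, 2.66, 1.23, 0.73 and 0.22 CPM in non-cycling and 85.3, 114, 52.0, 8.36 and 9.06 in S-gated cells, a difference of 5.29 ± 0.26. Its ranges did not overlap either, although the S level of the BD libraries was far below that of the 10x libraries.

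The other large differences rest on fewer UMIs. Hist1h3c, a core H3 gene, had 0, 0, 2, 1 and 2 UMIs in the non-cycling cells of the libraries in the same order and 17, 46, 48, 26 and 35 in the S-gated cells, a log2 difference of 5.73 ± 0.42. Hist1h1a, which encodes H1.1, had 4, 5, 5, 1 and 3 UMIs against 22, 51, 44, 13 and 10, a difference of 3.76 ± 0.29. Both genes had more UMIs in S-gated cells in every library although those cells were fewer. Hist2h2bb, an H2B gene, had 2, 3, 3, 0 and 0 UMIs against 10, 17, 26, 1 and 1, a difference of 3.57 ± 0.48 that again came from 10x.

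The remaining S-tied genes were Hist1h2ae (log2 difference 3.40), Hist1h2bm (3.02), Hist1h2bj (2.93), Hist1h1e (1.72) and Hist1h2bb (1.30). Non-cycling cells also held some of them, with Hist1h1e at 7.14, 14.5, 11.9, 2.81 and 3.33 CPM and Hist1h2ae at 6.56, 8.16, 3.96, 4.81 and 3.66. Hist1h1e is also the gene with a long annotated end and overlapping models. All 11 S-tied genes were higher in S-gated cells in 5 of 5 libraries, by share of UMIs and by UMIs per cell. The genes were chosen by this difference in the same libraries, so this agreement is a description and not separate support.

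**Figure D3:**
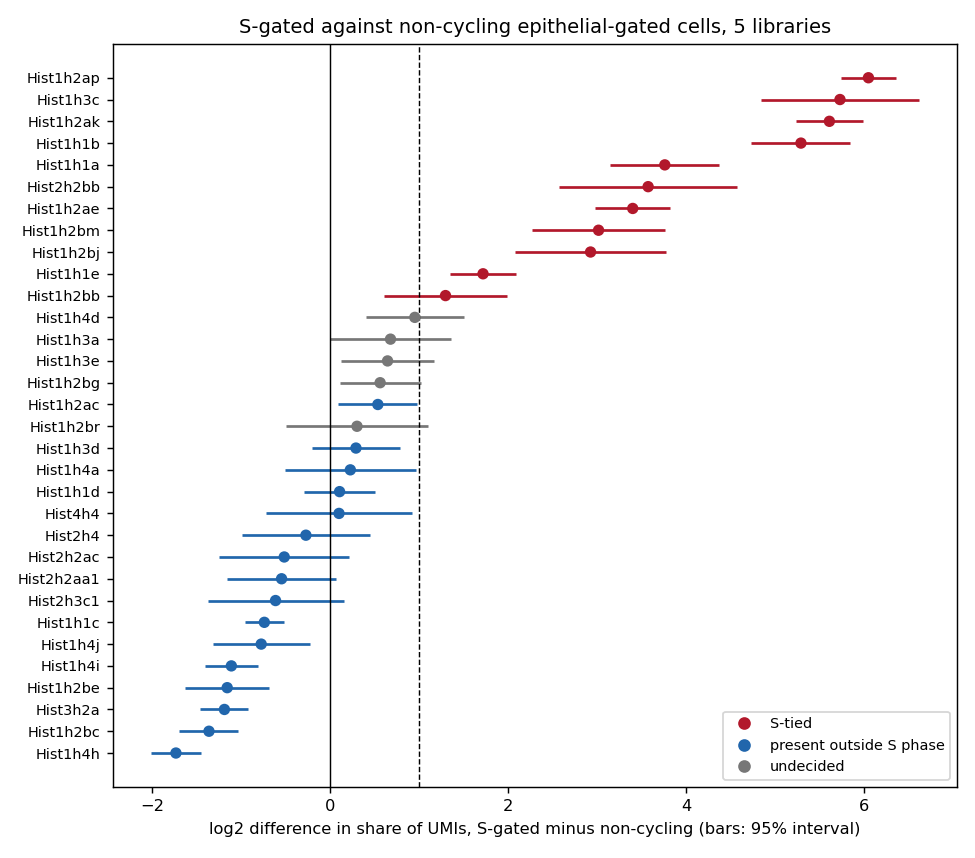
Fitted log2 difference in share of UMIs, S-gated minus non-cycling epithelial-gated cells, for the 32 tested members, with 95% intervals over 5 libraries. Red genes are S-tied, from Hist1h2bb at 1.30 to Hist1h2ap at 6.05, and blue genes have intervals below the dashed 2-fold line.

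At the other end, 7 members fell in S-gated cells as a share of UMIs, 21.9% of those tested, where 35.4% of all genes fell at the same adjusted p. They were Hist1h4h, Hist1h2bc, Hist3h2a, Hist1h2be, Hist1h4i, Hist1h4j and Hist1h1c. Hist1h4h stood at 58.5, 38.5, 42.1, 33.9 and 31.5 CPM in non-cycling cells and at 16.5, 10.3, 15.03, 13.1 and 7.61 in S-gated cells, a log2 difference of -1.73 ± 0.13. Hist1h2bc stood at 313, 342, 122, 179 and 163 against 104, 97.5, 56.5, 94.4 and 77.05, a difference of -1.36 ± 0.16. Neither gene's ranges overlapped. Hist3h2a stood at 33.8, 53.8, 29.6, 34.7 and 26.9 CPM in non-cycling and 17.2, 21.6, 15.6, 14.1 and 12.0 in S-gated cells (-1.19), also without overlap. For Hist1h2be, an H2B gene, the levels were 13.1, 18.6, 7.75, 10.9 and 6.99 against 6.19, 13.1, 4.35, 1.97 and 3.26 (-1.16), and for Hist1h4i 103, 129, 41.6, 36.7 and 32.6 against 36.1, 51.2, 30.6, 15.1 and 19.0 (-1.11). Hist1h4j, another H4 gene, stood at 3.47, 4.33, 2.46, 2.90 and 3.33 against 1.72, 1.25, 2.17, 1.64 and 2.54 (-0.77). The ranges of these 3 overlapped across libraries, although each was lower in S-gated cells within 5 of 5 libraries. Hist1h1c differed by -0.74.

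Counted per cell, most of these falls were absent. Hist1h1c stood at 2.79, 2.54, 2.12, 2.79 and 2.25 UMIs per non-cycling cell and at 3.31, 3.75, 3.16, 5.11 and 2.96 per S-gated cell, higher in 5 of 5 libraries. Per cell Hist1h4j, Hist1h2be and Hist3h2a were higher in S-gated cells in 4 libraries each, Hist1h4i in 3 and Hist1h2bc in 2. Hist1h4h was the exception, with 0.59 to 0.96 times as many UMIs per S-gated cell in 5 of 5 libraries. For these genes other than Hist1h4h and Hist1h2bc, a lower share stood beside more captured molecules per cell in at least 3 of 5 libraries.

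The class sums show the contrast in absolute terms. The 11 S-tied genes together gave 0.29, 0.43, 0.41, 0.13 and 0.094 UMIs per non-cycling cell and 23.7, 14.7, 22.6, 2.50 and 1.97 per S-gated cell. The S-gated values were separated by platform, with every 10x library above both BD libraries. The 16 genes present outside S phase gave 10.0, 11.5, 6.10, 6.95 and 4.96 UMIs per non-cycling cell and 10.4, 12.1, 8.02, 10.2 and 6.30 per S-gated cell, so the sum was higher in each library, most so in BD 1. The same genes were chosen into these classes by this difference, and the sums are a description.

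**Figure D4:**
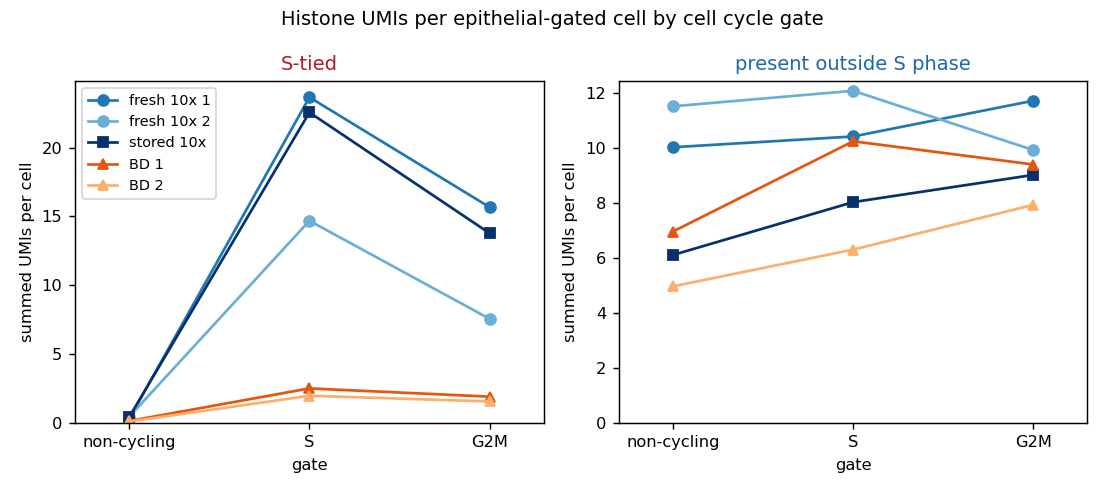
Summed UMIs per epithelial-gated cell of the 11 S-tied genes (left) and of the 16 genes present outside S phase (right) in the non-cycling, S and G2M gates, 1 line per library. The left panel shows S-gated sums of 14.7 to 23.7 in the 10x libraries against 2.50 and 1.97 in the BD libraries, and all values of the right panel lie between 4.96 and 12.1.

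The 31 members that could not be tested in the gates had totals of 10 to 308 UMIs and pooled to 502 UMIs in 3455 non-cycling cells and 698 in 796 S-gated cells. Of these genes 18 had more UMIs in S-gated cells and 12 had fewer, and 3 had none in non-cycling cells (Hist1h2af, Hist1h2ah and Hist1h3b). With the low-count filter dropped, 23 of all 63 members passed as S-tied, so the number of S-tied genes is limited by UMIs.

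The S-tied genes were also present in G2M-gated cells. Between the S and G2M gates 5 of 32 members were higher in S, 15.6% against 8.33% of all genes tested: Hist1h1a (log2 difference 1.66 ± 0.26), Hist1h2ap (0.88 ± 0.10), Hist1h1b (0.82 ± 0.18), Hist1h2ak (0.74 ± 0.11) and Hist1h2ae (0.62 ± 0.17). All 5 are S-tied. The other 6 S-tied genes did not pass, and the S-gated share of Hist1h2bb (-0.48) and Hist2h2bb (0.01) exceeded the G2M share in 1 of 5 libraries each. The gates overlap in content, because G2M-gated cells carried the S-phase genes at 14.3 to 17.0 UMIs per 10000, against 30.5 to 35.1 in S-gated and 0.90 to 1.35 in non-cycling cells. DESeq2 called only Hist1h1a and Hist1h2ak, and without the library block none passed. Hist1h2ae was not called without fresh 10x 1 or without fresh 10x 2.

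Genes that make, process and deposit histone transcripts and proteins were counted in the same test, in which 34.5% of all genes rose. Of 12 listed genes for transcription and 3' processing of replication-dependent histone transcripts, 11 were tested, 10 rose in S-gated cells and none fell. They included Slbp, the hairpin binding protein (log2 difference 1.77), Eri1, an exonuclease that acts on the hairpin end (2.19), Zfp473, a zinc finger protein of the processing complex (2.48), Npat, an activator of histone gene transcription (1.27), and Casp8ap2 (1.72). The exception was Lsm10, a subunit of the U7 particle, at -0.07. Of 8 histone chaperone genes 6 rose, led by Asf1b (5.19), Chaf1b (5.18) and Chaf1a (4.65), and Atrx fell by 0.22. Of 11 histone genes outside the clusters 7 rose, led by the centromeric histone gene Cenpa (4.04) and by H2afz (2.66), and H3f3b (-0.45) and H2afj (-0.29) fell. Against G2M-gated cells 6 of these 11 were lower in S-gated cells and 1 was higher, where 6.22% of all genes were lower. Cenpa stood at 56.4 to 83.9 CPM in S-gated and 241 to 355 in G2M-gated cells, higher in G2M in each library. Lists were chosen with earlier results of these data known, and no list was tested as a set.

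The platforms differed in the same direction for every member that passed. Between BD 1 and the fresh 10x pair 59 members were tested over whole libraries, and 19 passed, all lower in BD 1, while 38.7% of all genes passed in either direction and 18.6% passed as lower. The members' share of lower genes was 32.2%, and their median log2 difference was -0.67 against 0.03 over all genes tested. For 18 of the 19 both BD libraries were below all 3 10x libraries. The overlap between libraries was not counted over all genes. The filter bears on the share of lower genes, because Hist1h2ap, Hist2h2aa1 and Hist2h2bb reached it only through 10x libraries. That share is therefore not support for a general fall of the members. The spread in this test comes from the fresh pair alone, with 1 residual degree of freedom. Between the platforms, cell handling, chemistry and counting cannot be told apart, and neither can gene annotation.

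The largest difference was in Hist1h2ap, at -8.09 ± 1.37 (SE, adjusted p = 0.0120), from 2144, 567 and 5386 UMIs in the 10x libraries to 11 in BD 1. Without fresh 10x 1 it was -6.45. Hist1h2ao, the copy whose sequence contains the whole 3' end of Hist1h2ap, was low on both platforms, with 7, 18 and 8 UMIs in the 10x libraries and 11 and 6 in BD 1 and BD 2. Hist2h2aa1, an H2A gene of the Hist2 locus, had 210, 56 and 453 UMIs in the 10x libraries and 4 and 3 in the BD libraries, a difference of -6.16 ± 1.30 that was -4.15 without fresh 10x 1. For both genes the 10x libraries spanned a wide range, and every one was far above BD.

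Hist1h2br and Hist2h2bb followed. Hist1h2br, an H2B gene whose 3' end is also found in full in Hist1h2bq, stood at 2.13, 4.03 and 3.84 CPM on 10x and at 0.20 and 0.30 on BD Rhapsody (-4.06 ± 0.64), and the difference was -3.24 without fresh 10x 2. Hist2h2bb stood at 0.93, 2.40 and 1.44 against 0.12 and 0.18 (-3.93 ± 0.88), and at -2.67 without fresh 10x 2. Neither gene's platforms overlapped. With the low-count filter dropped Hist2h2bb no longer passed (adjusted p = 0.0516).

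The other 15 ran from Hist2h2ac at -3.23 and Hist1h1b at -3.03 to Hist1h4d at -1.06 and Hist1h2bc at -0.63. Hist1h2bc was the 1 called gene for which stored 10x lay below the BD libraries. By class 8 of 11 S-tied genes, 7 of 16 genes present outside S phase, 2 of 5 undecided genes and 2 of the 27 others tested were lower. The fall was thus found in both classes. By 3' end, 6 of 21 genes sharing more than 50% of it, 3 of 15 sharing a smaller part and 10 of 23 sharing none were lower. Whether near-identical copies were counted differently by platform was not tested.

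**Figure D5:**
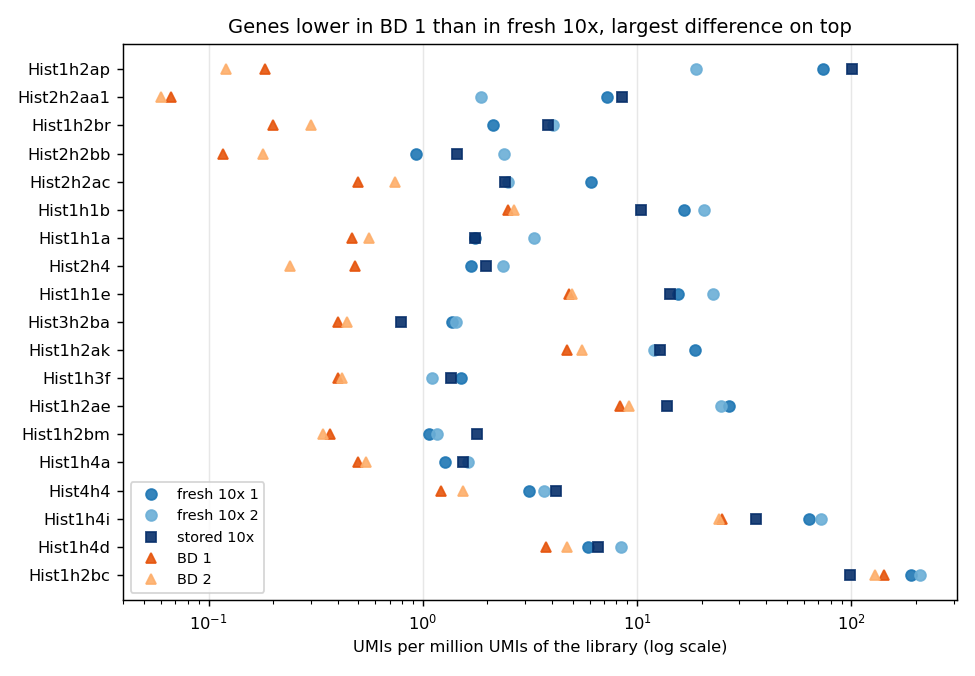
UMIs per 1000000 UMIs of the library (CPM, x axis, log scale) of the 19 members lower in BD 1 than in fresh 10x, 1 point per library, with the largest fitted difference on top. Triangles are the BD libraries, which lie left of all 10x points except for Hist1h2bc, where stored 10x is lowest at 98.9.

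No member passed as higher in BD 1. The largest increases were in Hist1h2ag and Hist1h2ai (H2A), Hist1h4f and Hist1h4b (H4), and they rest on few UMIs. Hist1h2ag had 3, 15 and 17 UMIs on 10x and 83 and 70 in BD 1 and BD 2, a log2 difference of 2.05 ± 0.76 (adjusted p = 0.0917). Hist1h2ai had 7, 3 and 6 against 46 and 53, a difference of 2.03 ± 0.65 (adjusted p = 0.0662). In CPM, both BD libraries were above all 3 10x libraries in 13 of the 63 members and below all 3 in 28. The same was not counted over all genes, so these counts do not set the members apart from other genes. Hist1h4f had 2, 8 and 7 UMIs against 34 and 46 (1.60 ± 0.77), and Hist1h4b 5, 5 and 7 against 34 and 24 (1.60 ± 0.59). When BD 2 was grouped with BD 1 by its title, 31 members passed and 7 of them were higher, namely Hist1h1c, Hist1h2ag, Hist1h2ai, Hist1h4b, Hist1h4f, Hist1h4n and Hist2h2be. The gene with most UMIs, Hist1h1c, differed by 0.20 (95% interval -0.06 to 0.46) in the fit that kept BD 2 apart.

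Non-cycling epithelial-gated cells also held members that were lower in BD 1. There 34 members were tested and 9 were lower in BD 1, 26.5%, where 34.7% of all genes passed in either direction and 17.6% as lower. Hist1h2ap, Hist2h2aa1 (-6.19), Hist1h2br (-3.76), Hist2h2ac (-3.01), Hist2h4 (-2.89), Hist1h1e (-2.05), Hist1h4i (-1.76), Hist1h3d (-1.45) and Hist1h2bc (-0.98) made up the 9. Hist1h2ap had 24 and 15 UMIs in these cells of the fresh pair and none in BD 1, at least 12.8-fold lower with a floor of 3 counts in that library. With no UMI in either BD library, it passed the filter through the 10x libraries alone. Hist2h2aa1, Hist1h2br, Hist2h2ac and Hist2h4 also reached the filter only through 10x libraries. The share of 26.5% is therefore not support for a general fall of the members in these cells. Hist1h4i stood there at 103, 129, 41.6, 36.7 and 32.6 CPM. DESeq2 kept 4 of the 9, Hist1h2ap, Hist1h2bc, Hist1h4i and Hist2h2aa1. The median mitochondrial share of the same cells was 6.45 to 7.48% on 10x and 17.8 and 22.3% in BD 1 and BD 2, and in cells with at most 20% mitochondrial UMIs all 9 genes were again lower, among 11.

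The rise from non-cycling to S-gated cells itself was compared between platforms. Of 32 members 0 passed the test of this difference, where 0.232% of all genes did, with 7 members at an unadjusted p below 0.05 and 0 by DESeq2. The nearest was Hist1h2ae, whose S-gated level was 126, 107 and 54.9 CPM on 10x and 22.6 and 28.1 on BD Rhapsody, while its non-cycling level was 3.96 to 8.16 on 10x and 4.81 and 3.66 on BD Rhapsody. Its rise was smaller on BD Rhapsody by a log2 difference of -1.43 (95% interval -2.07 to -0.79, adjusted p = 0.0704), and it passed under 4 of the alternatives. In the same cells 28 of the 32 members had the smaller rise on BD Rhapsody, with a median of -0.78 against 0.00 over all genes tested. For Hist1h2ap and Hist2h2bb, both among the 32, the BD libraries held no UMIs in non-cycling cells, so their interaction cannot be read. The direction was not counted over all genes. The filter also bears on these values, because 9 of the 11 S-tied genes reached it only through their cycling cells. The 28 and the median are therefore not support for a generally smaller rise of the members on BD Rhapsody.

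Over whole libraries no member passed the test for storage of the digest. In edgeR 0 of 59 members passed, where 0.147% of all genes did, with 7 members at an unadjusted p below 0.05, and DESeq2 called 2, Hist1h2bc and Hist1h4i. The largest falls were in Hist1h2ac (-1.44 ± 0.41), Hist1h2ao (-1.40 ± 0.85, from 7 and 18 UMIs to 8), Hist1h2bc (-0.94 ± 0.11, adjusted p = 0.0836) and Hist1h3i (-0.89 ± 0.89). Hist1h2ac stood at 5.04 and 8.83 CPM in the fresh pair and 2.44 in stored 10x. The largest increases were in Hist2h3b (1.74 ± 0.54, from 7 and 11 UMIs to 52), Hist1h4n (1.38 ± 0.51, from 8 and 13 to 47), Hist1h2ap (1.19 ± 0.72) and Hist1h3b (1.08 ± 0.61, from 6 and 6 to 22).

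In non-cycling epithelial-gated cells storage went with lower levels of 2 of the most abundant members. Of 34 tested, Hist1h4i and Hist1h2bc were lower in stored 10x and none was higher, where 0.323% of all genes passed as lower. Hist1h4i fell from 103 and 129 CPM to 41.6, a log2 difference of -1.48 ± 0.18 (adjusted p = 0.00901). Hist1h2bc fell from 313 and 342 to 122, a difference of -1.42 ± 0.17 (adjusted p = 0.00610). The BD libraries stood below the stored value for Hist1h4i and between the stored and fresh values for Hist1h2bc. With 1 stored sample, storage and sample cannot be told apart.

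Outside the epithelium most of the members that could be tested were lower. Non-cycling cells of each type were summed per library and set against epithelial-gated cells of the same libraries. The low-count filter left 7 members to test: Hist1h1c, Hist1h1d, Hist1h2bc, Hist1h4h, Hist1h4i, Hist3h2a and Hist4h4. It works on CPM per sum, and left out Hist1h1e and Hist1h2be, which had more UMIs over the libraries than Hist4h4. Members high in epithelial-gated cells could pass through those sums, which favours lower values elsewhere. With no filter, of 60 members 5 differed in endothelial-gated, 21 in fibroblast-gated, 9 in macrophage-gated, 4 in mural-gated and 4 in T-gated cells. Of the 21 and of the 9, 1 each was higher. In fibroblast-gated cells (479 cells, Col1a1, Dcn and other markers) 6 were lower, where 62.4% of all genes passed in either direction and 32.3% as lower. The counts were 5 lower in endothelial-gated cells (38.3% of all genes in either direction, 23.1% lower), 5 lower and 1 higher in macrophage-gated cells (52.5% and 28.9%), 4 lower in mural-gated cells (23% and 15.1%) and 4 lower in T-gated cells (30.4% and 21.4%). Hist1h1c, Hist1h2bc, Hist1h4h and Hist1h4i were lower in all 5 types. Without fresh 10x 1, Hist1h4h was not called in mural-gated or T-gated cells, Hist1h1c not in mural-gated and Hist3h2a not in endothelial-gated cells. With DESeq2, Hist1h4i was not called in mural-gated, Hist3h2a not in endothelial-gated and Hist1h4h not in T-gated cells, while Hist1h1d was called higher in T-gated cells, from 6 UMIs in 52 cells.

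Hist1h4h was low in fibroblast-gated cells. It stood at 58.1, 38.6, 41.8, 33.9 and 31.9 CPM in epithelial-gated cells of the 5 libraries and at 1.46, 0, 3.73, 2.12 and 2.22 in fibroblast-gated cells, a log2 difference of -4.12 ± 0.31. Over the fibroblast-gated cells 15 UMIs made 5.67% of the epithelial level. Epithelial marker genes themselves were found in those cells at 1.79 to 8.95% of their epithelial level, a range that holds this value. The gate itself limits those markers, and the source of their UMIs was not tested. No Hist1h4h UMI was found in 67 endothelial-gated or 28 mural-gated cells, at least 5.54-fold and 1.80-fold below the epithelial level with a floor of 3 counts over the group. Epithelial markers stood at 1.39 to 7.57% of their epithelial level in endothelial-gated and at 2.50 to 7.27% in mural-gated cells. The floors there are too high to place Hist1h4h inside or outside these ranges. In 52 T-gated cells Hist1h4h rested on 2 UMIs, 27.3% of the epithelial level.

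Hist1h2bc and Hist3h2a were lower but present. Hist1h2bc stood at 109, 136, 76.9, 72.2 and 54.0 CPM in fibroblast-gated cells against 311, 342, 122, 179 and 162 in epithelial-gated cells (-1.36 ± 0.20). In the pooled cells this was 39.5% of the epithelial level, well above the range of the epithelial markers there. Hist3h2a in fibroblast-gated cells was at 37.5% of the epithelial level (-1.44 ± 0.23), and Hist1h1c at 29.3% (-1.88 ± 0.20). In macrophage-gated cells Hist1h1c was at 34.2% and Hist1h4i at 8.14%, the latter within the 4.62 to 10.3% of the epithelial markers there.

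Among the 7 tested members the 1 higher value was Hist4h4, the Hist4 gene, in macrophage-gated cells. It had 0, 6, 1, 2 and 1 UMIs there, against 10, 11, 47, 14 and 20 in more epithelial-gated cells, a log2 difference of 1.86 ± 0.70 (adjusted p = 0.0260). It did not pass without fresh 10x 2, which held 6 of the 10 UMIs, or with at least 30 cells per sum. Its pooled epithelial level was 2.34 CPM, below that of Hist1h2be (10.7 CPM), which the low-count filter left out. Hist4h4 thus entered the test through sums of other cell types, so the filter favoured a higher value there. Hist2h3c1, an H3 gene named after its values were seen, was left out by the low-count filter. It had 6, 4, 11, 11 and 10 UMIs in fibroblast-gated cells, 8.75, 7.27, 8.21, 3.89 and 7.40 CPM, against 2.68, 1.32, 1.19, 2.99 and 2.21 CPM in epithelial-gated cells. The ranges did not overlap, and it passed as higher in 3 alternatives, namely without the filter, with at least 30 cells per sum and without fresh 10x 2. Its 3' end is shared in full with Gm20634, which overlaps it on the same strand. The count of this symbol may therefore not stand for Hist2h3c1 alone.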

How the data were processed

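The authors deposited matrices of raw UMI counts per gene and cell, whole numbers without normalisation per the file headers. The submitters' processing notes name Cell Ranger 3.0.1 and mm10, without saying for which library, and the gene annotation is not given in the sources used here. Library totals ranged from 29166129 to 59957945 UMIs, and the deposited cells were used as given. The members and lists were chosen with earlier results of these data known.

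Cells were gated by fixed markers, with at least 2 distinct markers of a type and 3 times the marker UMIs of any other type. No doublet caller was run, and cells with mixed markers stayed ungated. Phase gates used cells with at least 3000 UMIs, and cell types used non-cycling cells with at least 1000 UMIs and sums of at least 10 cells. Counts summed per library were tested with edgeR 4.0.16 in R 4.3.3 (TMM, quasi-likelihood, Benjamini-Hochberg over all genes, adjusted p below 0.05) after the filterByExpr filter, with DESeq2 1.42.0 as an alternative. The fits were tested on simulated data. S-tied genes also needed a log2 difference of at least 1. Whole-library fits held 5 libraries in 4 groups.

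Full values are given for the 8 members with most UMIs, the 6 largest and 6 smallest S-phase differences, and the 4 largest rises and falls by platform and storage (called genes first, otherwise all tested). Gene models and sequences came from GENCODE M21 and RefSeq on GRCm38. Intervals and floors cover counting error or the spread between libraries. Alternatives changed the cells, gates, filter, scaling, tool and libraries.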

Additional observations from a re-analysis of the deposited data

How the results depend on the processing

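No call reversed under any alternative run. With BD 2 grouped with BD 1 by its title, 31 members differed between BD 1 and fresh 10x instead of 19, and 15 instead of 9 in non-cycling cells. Leaving BD 2 out, an alternative chosen after seeing the data, kept 19, 0 and 9 calls for platform, storage and non-cycling cells. With no filter on low counts, 13 of the 19 platform calls were kept, 23 members instead of 11 were S-tied, 21 instead of 6 differed in fibroblast-gated cells, and 1 (Hist1h2ae) differed in its S-phase rise between platforms. Sums of at least 30 cells gave 14 in fibroblast-gated cells, and for mural-gated and T-gated cells they could not be had. The higher level in S than in G2M held for 3 members with all cells, 3 with gates from scores at 3000 UMIs a cell, 2 by the DESeq2 Wald test and 0 with no library block. Hist1h2ae alone made the 1 call of a platform difference in S-phase rise with scores at 3000 UMIs a cell and with gates of the top 5%. The DESeq2 Wald test gave 2 calls for storage and 4 for the platform in non-cycling cells. Over whole libraries it shared 14 of the 19 platform calls, leaving out Hist3h2ba, Hist1h3f, Hist1h2bm, Hist1h4a and Hist1h4d.

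Leaving out each library in turn gave 10 to 13 S-tied members, 8 to 11 of them among the 11, 4 to 6 higher in S than in G2M, and 0 to 1 for the platform difference in rise (1 without fresh 10x 2). By cell type it gave 3 to 5 in endothelial-gated, 3 to 8 in fibroblast-gated, 3 to 6 in macrophage-gated, 2 to 4 in mural-gated (2 without fresh 10x 1) and 3 to 4 in T-gated cells. Without either BD library only 3 members passed the filter there. In the platform comparison a fresh sample left out leaves no residual degree of freedom, so values have no test. The minimum of 3000 UMIs is already part of the non-cycling comparison. No paired analysis was possible because each pair of groups compared over whole libraries shares at most 1 replicate number. The cause of these changes was not tested, except where fewer genes were tested. The median over all genes moved by at most 0.18 on the log2 scale between scalings, and that of the members was -0.67, -0.70 and -0.49 with TMM, DESeq2 size factors and CPM. Depth limits the 31 members that could not be tested in the gates.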
